A study of Mus musculus with 15 samples.

Results

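Cohesin is a ring-shaped protein complex that holds DNA strands together and extrudes chromatin loops, and Rad21 is its kleisin subunit, which closes the ring. CTCF is a zinc finger protein that binds a long DNA motif and halts extruding cohesin, so many strong cohesin peaks in mammalian genomes lie on CTCF sites. Acetylation of histone H3 at lysine 27 (H3K27ac) marks active promoters and enhancers, where cohesin can also be found without CTCF.

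The regions described here are the places where Rad21 was called at an active promoter without CTCF. They were chosen by measured peak calls: a region had to hold a Rad21 peak in both Rad21 libraries, overlap no CTCF peak, overlap an H3K27ac region found in both H3K27ac libraries, and lie within 2000 bp of the transcription start site (TSS) of a protein-coding gene. Of 30959 Rad21 regions shared by both libraries, 3764 met these conditions, which is 12.2%. They made up 49.5% of the CTCF-free Rad21 regions with H3K27ac, the rest of which lay away from promoters. They are called CTCF-free promoter regions below. The count rests on the Rad21 lists: 8324 regions qualified without the first Rad21 library, 5673 without the second, and 1763 when both peaks needed a −log10 q of at least 5.

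The study concerns cohesin-driven loop extrusion in primary CD69-negative CD4+CD8+ cells from the thymus of C57BL/6 mice, the double-positive stage of T cell development before positive selection. All chromatin immunoprecipitation (ChIP-seq) lists came from wild type cells: 2 Rad21, 2 H3K27ac and 1 CTCF library. Hi-C samples of CTCF-/-, Rad21-/- double knockout, CTCF-/- and wild type cells and 2 input samples complete the 15 samples and were not analysed here. Whether replicates are separate animals is not stated, which means that their spread may be purely technical, and CTCF has no replicate. The depth behind each value is unknown, since the lists give peaks without read numbers. No value below has a test, because the members were selected on peak calls and only 1 genotype was profiled; differences are set against the gap between the Rad21 libraries.

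The labelled cell type was checked on the H3K27ac lists. All 11 annotated markers of double-positive thymocytes had shared H3K27ac at a promoter, and 9 of them had a CTCF-free promoter region. Over all 22342 protein-coding genes, 40.9% had shared H3K27ac and 15.0% had a CTCF-free promoter region, which is 36.8% of those with H3K27ac. None of the 8 myeloid markers had shared H3K27ac. H3K27ac was found at 2 of 8 B cell markers, 2 of 7 erythroid markers, 1 of 6 markers of thymic epithelium (Aire) and 1 of 6 of endothelium and stroma (Pecam1). Of these marker lists of other cell types, only Pecam1 had a CTCF-free promoter region.

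Sequences of 100 bp on either side of the Rad21 summit of the first library show the kinds of promoter involved. They are on the plus strand of build mm9, and for the CTCF-free regions the capitals mark matches, on either strand, to the GC box of Sp and Klf factors (GGGCGG), the ETS motif (CCGGAAG), the YY1 motif (AAGATGGCG), the E-box of E proteins (CAGCTG), the Runx motif (TGTGGT) and the Tcf and Lef motif (CTTTGA). The first 7 are from the 8 CTCF-free promoter regions that ranked highest by Rad21 fold in both libraries, at chr3:21975539-21975739 (Tbl1xr1), chr2:18919899-18920099 (Pip4k2a), chr13:91600242-91600442 (Ssbp2), chr9:123676170-123676370 (Ccr9), chr5:37436088-37436288 (Jakmip1), chr5:149995755-149995955 (Uspl1) and chr1:182260567-182260767 (Itpkb, a region shared with Gm5069).
Tbl1xr1: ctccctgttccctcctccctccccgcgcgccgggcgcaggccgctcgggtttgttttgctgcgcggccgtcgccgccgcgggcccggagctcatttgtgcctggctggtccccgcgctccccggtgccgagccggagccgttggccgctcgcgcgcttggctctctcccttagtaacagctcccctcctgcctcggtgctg
Pip4k2a: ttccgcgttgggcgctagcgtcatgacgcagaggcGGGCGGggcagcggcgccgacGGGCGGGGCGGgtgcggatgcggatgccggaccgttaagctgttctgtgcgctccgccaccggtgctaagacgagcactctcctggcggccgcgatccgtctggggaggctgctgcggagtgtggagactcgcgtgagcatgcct
Ssbp2: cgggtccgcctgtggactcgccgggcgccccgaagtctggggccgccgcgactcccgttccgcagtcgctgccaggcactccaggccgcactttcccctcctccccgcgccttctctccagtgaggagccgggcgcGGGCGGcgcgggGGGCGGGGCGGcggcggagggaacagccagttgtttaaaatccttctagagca
Ccr9: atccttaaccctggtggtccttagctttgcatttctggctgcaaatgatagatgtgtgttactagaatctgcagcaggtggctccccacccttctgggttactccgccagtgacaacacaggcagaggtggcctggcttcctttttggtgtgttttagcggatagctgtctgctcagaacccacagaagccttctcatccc
Jakmip1: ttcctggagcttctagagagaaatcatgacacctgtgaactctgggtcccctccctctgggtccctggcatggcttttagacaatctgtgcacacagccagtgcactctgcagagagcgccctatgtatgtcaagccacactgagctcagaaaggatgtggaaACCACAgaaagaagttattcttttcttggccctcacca
Uspl1: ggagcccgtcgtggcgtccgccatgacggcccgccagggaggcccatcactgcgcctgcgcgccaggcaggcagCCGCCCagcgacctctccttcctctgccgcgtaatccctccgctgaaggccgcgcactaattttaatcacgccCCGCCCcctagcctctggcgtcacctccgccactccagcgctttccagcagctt
Itpkb: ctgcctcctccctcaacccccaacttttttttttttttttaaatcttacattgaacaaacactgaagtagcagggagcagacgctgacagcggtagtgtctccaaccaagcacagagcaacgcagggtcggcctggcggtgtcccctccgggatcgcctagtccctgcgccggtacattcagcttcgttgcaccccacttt

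CpG-rich and CpG-poor windows both occurred among these tall members. The Tbl1xr1, Pip4k2a, Ssbp2 and Uspl1 windows held 26, 28, 25 and 21 CpG dinucleotides, against 10 in Itpkb, 2 in Ccr9 and 1 in Jakmip1, whose summit lay at -2524 bp from the TSS, on the upstream side. The Pip4k2a and Ssbp2 windows held 3 GC boxes each, some of them overlapping, Uspl1 held 2 and Jakmip1 held 1 Runx match. The Tbl1xr1, Ccr9 and Itpkb windows had no match to the 6 motifs. The CTCF core consensus was not marked in these windows. Ccr9 had a match to it with 2 mismatches within 50 bp of the summit in both libraries. The next 4 windows are from T cell receptor genes in the order of the list used below, at chr9:44817346-44817546 (Cd3e), chr9:44789787-44789987 (Cd3d, a region shared with the divergent gene Cd3g), chr1:167718702-167718902 (Cd247) and chr6:124829460-124829660 (Cd4).
Cd3e: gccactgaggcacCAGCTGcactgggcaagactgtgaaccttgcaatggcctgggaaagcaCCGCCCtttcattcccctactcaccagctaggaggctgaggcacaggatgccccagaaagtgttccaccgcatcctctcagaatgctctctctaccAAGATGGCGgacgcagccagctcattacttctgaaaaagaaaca
Cd3d: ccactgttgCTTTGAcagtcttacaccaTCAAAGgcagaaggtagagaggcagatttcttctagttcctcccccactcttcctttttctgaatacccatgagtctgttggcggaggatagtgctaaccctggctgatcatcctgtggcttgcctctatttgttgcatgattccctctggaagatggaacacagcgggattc
Cd247: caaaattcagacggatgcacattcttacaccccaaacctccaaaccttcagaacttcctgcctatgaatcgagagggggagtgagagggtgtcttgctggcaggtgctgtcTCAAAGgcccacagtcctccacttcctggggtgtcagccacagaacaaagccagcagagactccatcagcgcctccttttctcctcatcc
Cd4: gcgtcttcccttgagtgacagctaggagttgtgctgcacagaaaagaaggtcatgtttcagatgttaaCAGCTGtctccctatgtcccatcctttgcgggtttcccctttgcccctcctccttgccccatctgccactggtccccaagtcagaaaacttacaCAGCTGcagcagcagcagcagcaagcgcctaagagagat

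These windows held 4, 2, 3 and 3 CpGs. Each had at least 1 match to a motif of factors active in T cells: an E-box in Cd3e, 2 Tcf and Lef matches in Cd3d, 1 in Cd247 and 2 E-boxes in Cd4. Cd3e also held a GC box and a YY1 match, and no Runx match was found in these windows. Of members with a ratio of observed to expected CpG of at most 0.6, 21.4% held the E-box in the first library. The Runx motif was in 19.2% of them and the Tcf and Lef motif in 14.6%. For comparison, the 3 tallest Rad21 regions at active promoters with a CTCF peak are shown with the best match to the CTCF core consensus in capitals, at chr13:114408798-114408998 (Snx18), chr11:102964073-102964273 (Acbd4 and Plcd3) and chr8:93352614-93352814 (Chd9).
Snx18: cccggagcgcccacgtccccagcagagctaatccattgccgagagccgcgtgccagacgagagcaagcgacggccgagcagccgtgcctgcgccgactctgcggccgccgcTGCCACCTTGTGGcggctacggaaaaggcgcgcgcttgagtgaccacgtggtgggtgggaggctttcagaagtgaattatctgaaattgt
Acbd4: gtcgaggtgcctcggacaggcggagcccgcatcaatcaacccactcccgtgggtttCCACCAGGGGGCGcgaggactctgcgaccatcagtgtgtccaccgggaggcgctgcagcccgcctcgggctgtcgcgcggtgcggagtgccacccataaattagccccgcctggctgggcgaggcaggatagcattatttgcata
Chd9: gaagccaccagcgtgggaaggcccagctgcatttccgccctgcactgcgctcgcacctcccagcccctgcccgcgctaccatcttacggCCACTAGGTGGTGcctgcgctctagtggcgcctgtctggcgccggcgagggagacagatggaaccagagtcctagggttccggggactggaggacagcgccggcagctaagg

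The match had no mismatch in Acbd4 and 1 mismatch each in Snx18 and Chd9. The 3 summits lay upstream of the TSS, 20 to 217 bp from it.

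Rad21 at CTCF-free promoter regions was lower than at active promoter regions with a CTCF peak. The authors' fold enrichment, which is the height of a peak over its local background, had a median of 5.62 in the first Rad21 library (quartiles 4.64 and 7.35, range 2.96 to 45.2) and 6.90 in the second (quartiles 5.31 and 8.93, range 3.13 to 39.6). Active promoter regions with a CTCF peak had medians of 10.0 and 11.7. The ratio of the medians was 0.575 ± 0.0204 (mean and SD over the 2 libraries). The other CTCF-free classes were similarly low. CTCF-free regions with H3K27ac away from promoters had medians of 6.16 and 7.82. Those without H3K27ac had 5.58 and 6.44 at promoters and 6.21 and 7.61 away from them. Since the peak call itself rests on the fold, these heights are a description of what the rule admits.

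The heights of the members were less alike between libraries than those of CTCF-bound promoter regions. Spearman's rank correlation of the fold between the libraries was 0.381 over the 3764 CTCF-free promoter regions, against 0.762 over the 2305 CTCF-bound ones. Both libraries share the same regions and the same selection. The other CTCF-free classes had 0.456 (H3K27ac, away from promoters), 0.321 (promoters without H3K27ac) and 0.410 (neither). The fold range also differed: quartiles in the first library were 6.69 and 16.2 at CTCF-bound promoter regions and 4.64 and 7.35 at the members. The folds also took few values, as the plot of both libraries shows by its bands: the 10 commonest values covered 25.3% of the members in the first library and 23.1% in the second. Summits of the libraries lay a median of 59 bp apart, and within 100 bp of each other in 68.7% of the members.

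**Figure D1:**
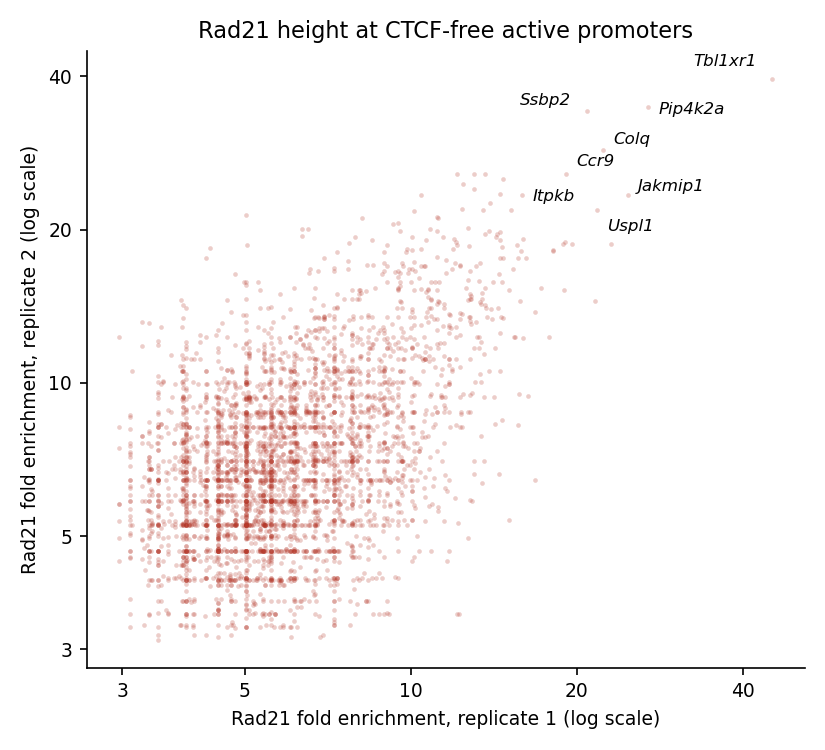
Rad21 fold enrichment of the 3764 CTCF-free promoter regions in replicate 1 (x axis) and replicate 2 (y axis), both on log scales; each point is a region, and the 8 regions tallest in both libraries are named. The middle of the cloud lies at 5.62 and 6.90, many points fall on bands of repeated values, and Tbl1xr1 stands at 45.2 and 39.6.

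The tallest members were not the genes of one pathway. The region at Tbl1xr1, which encodes a subunit of NCoR and SMRT corepressor complexes, covered chr3:21975517-21976828 and had folds of 45.2 and 39.6 in the first and second library. Pip4k2a, a phosphatidylinositol phosphate kinase gene that shares its region with 4930426L09Rik, had 26.99 and 34.77. Both stood above the upper quartiles of the CTCF-bound promoter regions, which were 16.2 and 19.9.

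Further regions tall in both libraries lay at genes of thymocyte biology. Ccr9, the receptor for the thymic chemokine Ccl25, had folds of 19.1 and 25.7 with summits 59 and 61 bp upstream of the TSS. Itpkb, an inositol trisphosphate kinase needed for T cell selection, had 15.9 and 23.4, and Themis, an adaptor of T cell receptor signalling, had 14.7 and 25.2. Hivep2, a zinc finger transcription factor, had 15.2 and 21.9.

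The other regions among the 12 tallest belonged to genes of varied function. Ssbp2, a partner of LIM-domain binding proteins, had folds of 20.9 and 34.1, and Colq, the collagen tail of acetylcholinesterase, had 22.3 and 28.7. Jakmip1, a microtubule-associated partner of Janus kinases, had 24.8 and 23.4, and Uspl1, a SUMO protease, had 21.7 and 21.8. Fam78a had 16.0 and 19.1, and Phlda1, a pleckstrin homology-like protein, had 14.5 and 23.5. The CTCF gap of these 12 regions, the distance to the nearest CTCF peak, ran from 329 bp at Phlda1 to 95322 bp at Pip4k2a.

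The members had a median width of 392 bp (quartiles 294 and 543), against 410 bp at CTCF-bound promoter regions and 371 bp at the CTCF-free regions with H3K27ac away from promoters. Of the members, 464, or 12.3%, were built from more than 1 peak in a library. The widest was at Btg2, an antiproliferative gene of resting lymphocytes, with 3172 bp, then Ets1, a transcription factor of T cell development, with 2923 bp, and Pip4k2a with 2489 bp. Satb1, a chromatin organiser of thymocytes, had most peaks within a region, 4 in the first library and 3 in the second. It was followed by Ets1 with 5 and 1, and by Dyrk2, a protein kinase gene, with 4 and 2.

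The conditions of the rule had members close on either side. The regions nearest to the 2000 bp limit inside it were at Ppp1r9b (1999 bp, folds 14.7 and 17.6) and Jakmip1 (1993 bp). Those just outside were at Cpt1a (2002 bp, folds 8.65 and 10.2) and Obfc1 (2012 bp, folds 6.19 and 7.81). The region at Mcl1, a survival factor of thymocytes, abutted a CTCF peak without overlapping it, and the one at Nnt lay 4 bp from a CTCF peak. CTCF peaks lay within 1000 bp of 629 members (16.7%), within 5000 bp of 1438 (38.2%) and within 10000 bp of 1969 (52.3%), with a median gap of 8989 bp. The 629 members with CTCF within 1000 bp had median folds of 5.58 and 6.72, and the 3135 others had 5.66 and 6.90.

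Summits of the CTCF-free promoter regions lay near start sites, as did those of CTCF-bound promoter regions. The median unsigned distance to the nearest protein-coding TSS was 152 bp in the first library and 155.5 bp in the second, against 186 and 182 bp at CTCF-bound promoter regions; the rule allowed regions up to 2000 bp away in both classes. Summits lay within 200 bp of a TSS in 55.3% of the members in each library and in 51.6% and 52.0% of the CTCF-bound regions, and 1878 members had both summits in that reach. The 100 bp before the TSS held 20.6% and 21.7% of the summits, and the 100 bp after it 20.6% and 18.3%.

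CTCF-bound promoter regions were placed further upstream. Upstream summits made up 47.1% and 49.5% of the members, against 58.7% and 59.0% of the CTCF-bound regions. The 20.6% and 18.3% of members' summits in the first 100 bp after the TSS compare with 12.4% and 12.2% of the CTCF-bound summits. Counting only regions with 1 gene in reach, where the direction is not mixed between genes, upstream summits were 48.5% and 50.2% of the 3221 members and 60.6% and 61.0% of the 2031 CTCF-bound regions. The gap between the classes was wider than that between the libraries.

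**Figure D2:**
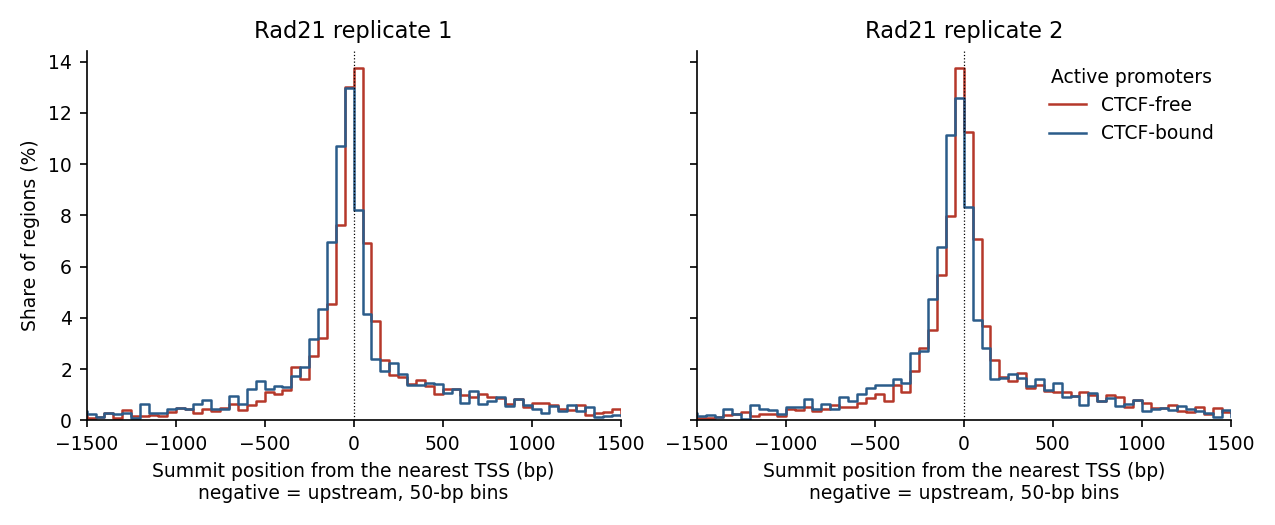
Position of Rad21 summits from the nearest protein-coding TSS in bp (x axis, negative is upstream, 50-bp bins) against the share of regions in percent (y axis), for CTCF-free (red) and CTCF-bound (blue) active promoter regions in each Rad21 replicate. The CTCF-free curve is centred on the TSS and lies above the CTCF-bound curve in the first 100 bp downstream; the CTCF-bound curve lies above it from 200 to 50 bp upstream.

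The members' windows were CpG-rich. Within 100 bp on either side of the summit the ratio of observed to expected CpG had a median of 0.788 and 0.785 in the libraries, and GC content had a median of 63.2% and 62.7%. CTCF-bound promoter regions had CpG ratios of 0.762 and 0.757. The 3840 CTCF-free regions with H3K27ac away from promoters, called distal below, had 0.247 and 0.249. A ratio above 0.6, used here as the limit of CpG-rich sequence, was found in 69.1% and 69.4% of the members.

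The CTCF core consensus was less frequent at the members' summits than at those of CTCF-bound promoter regions. A match with at most 2 mismatches within 50 bp lay at 9.35% and 8.18% of their summits, against 50.3% and 48.5% of CTCF-bound promoter regions. Windows 1000 bp from the members' summits, toward higher coordinates whatever the strand of the gene, held it in 4.70% and 4.81%. The CTCF-free distal regions held it at 9.22% and 9.06% of their summits. Shared Rad21 regions without a CTCF peak and without H3K27ac held it more often, at 31.3% and 30.7% of 374 promoter regions and 54.6% and 55.2% of 2581 distal regions. In the members, 168 had the match at both summits. The absence of a CTCF peak was part of the rule, so the difference from CTCF-bound regions is a description.

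The GC box and the ETS motif were more frequent at the members than at distal regions. Of 15 short motifs searched on both strands within 100 bp of the summit, the GC box was found in 45.7% ± 0.319 of the members (mean and SD over the 2 libraries), against 43.6% ± 0.184 of CTCF-bound promoter regions, 9.82% ± 0.258 of distal regions and 15.1% of all shared Rad21 regions. The ETS motif was found in 13.7% ± 0.132 of the members, 11.6% ± 0.276 of CTCF-bound promoter regions, 4.18% ± 0.0552 of distal regions and 4.14% of all shared regions. The YY1 motif, of a zinc finger factor that joins promoters and enhancers, was in 2.59% ± 0.169 of the members, 1.28% ± 0.0920 of CTCF-bound promoter regions and 0.156% ± 0.0368 of distal regions. The GC box, ETS and YY1 motifs each hold a CpG. The median CpG ratio in the first library was 0.788 at the members and 0.247 at distal regions. Its part in these differences was not tested.

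The CRE (TGACGTCA), bound by ATF and CREB factors, was found in 1.97% ± 0.150 of the members and 0.998% of CTCF-bound promoter regions. The ZNF143 motif (ACTACAATT), of a zinc finger factor that binds promoters, was in 0.518% ± 0.0188 of the 3764 members and 0.0868% of the 2305 CTCF-bound promoter regions. Few regions of either class held it. The SDs of the motif shares compare summits of the same regions between the libraries, so they do not measure the uncertainty of a rare share. Among members, NRF1 (GCGCATGCG) was found in 1.59% and the E-box of Myc and Usf (CACGTG) in 6.36%. GC content had the same median of 63.2% in the first library in both classes of promoter region.

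The E-box, Runx, Tcf and Lef, GATA and AP-1 motifs were less frequent at the members than at distal regions. Median GC content in the first library was 63.2% at the members and 50.7% at distal regions. The part of base composition in the motif differences was not tested. The E-box of E proteins, which Tcf12 and Tcf3 bind, was found in 13.9% ± 0.376 of the members, against 30.0% of distal regions and 11.8% ± 0.184 of CTCF-bound promoter regions. The Runx motif was in 10.1% ± 0.188 of the members, 29.0% of distal regions and 9.24% ± 0.123 of CTCF-bound promoter regions. Tcf and Lef matches lay in 8.22% ± 0.395 of the members and 18.5% of distal regions. The GATA motif (AGATAA) was in 3.27% of the members and 8.39% of distal regions, and AP-1 (TGANTCA) in 2.88% of the members and 6.81% of distal regions. The Ikaros motif (TGGGAA) was in 12.3% of the members, 13.3% of distal regions and 13.3% of CTCF-bound promoter regions. The CCAAT box (CCAAT) was in 16.5% of the members, 14.2% of distal regions and 19.2% of all shared regions, and the TATA box (TATAAA) in 2.96% of the members, 6.32% of distal regions and 3.12% of CTCF-bound promoter regions.

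**Figure D3:**
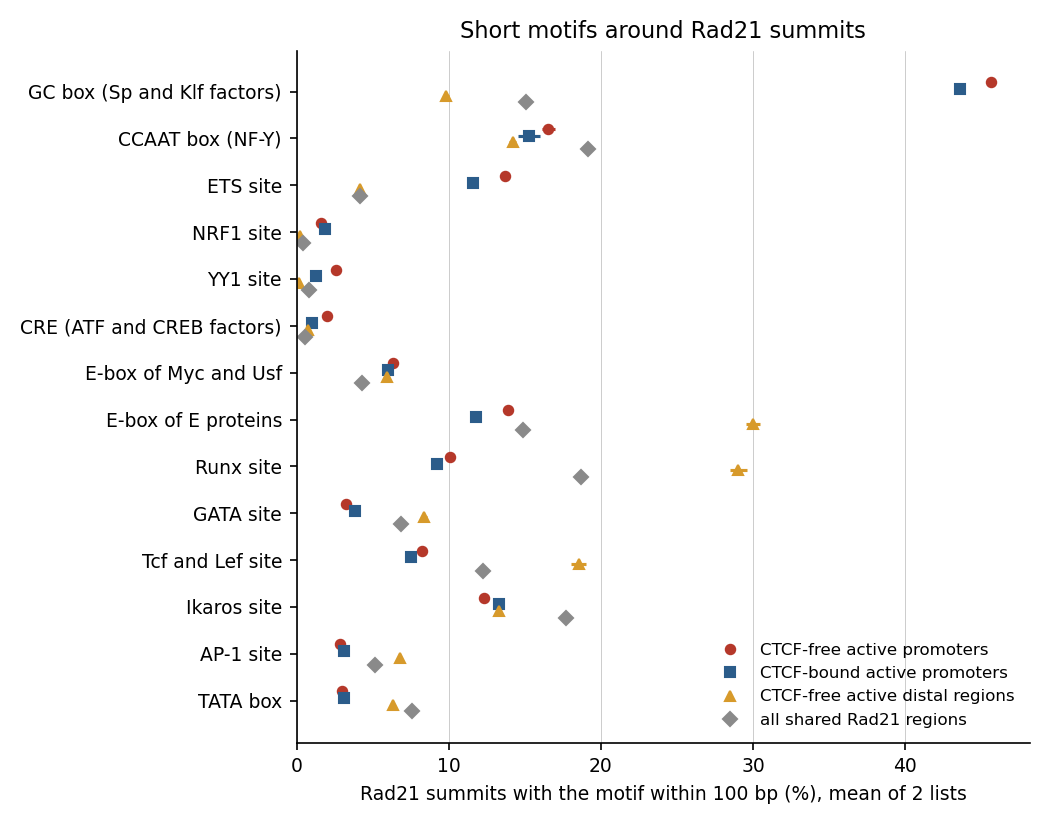
Share of Rad21 summits with a short motif within 100 bp (x axis, percent; mean of both Rad21 libraries, with a bar from the lower to the higher) for 14 motifs (y axis) in CTCF-free active promoter regions, CTCF-bound active promoter regions, CTCF-free active distal regions and all shared Rad21 regions. The GC box is near 45.7% in CTCF-free promoter regions and near 9.82% in distal regions, while the E-box of E proteins and the Runx motif are near 30.0% and 29.0% in distal regions.

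Motif shares differed between CpG-poor and CpG-rich members. The 1163 members with a CpG ratio of at most 0.6 in the first library held the E-box of E proteins in 21.4%, the Runx motif in 19.2%, the Tcf and Lef motif in 14.6% and the GC box in 18.3%, and their summits lay a median of 582 bp from a TSS. The 2601 CpG-rich members had these motifs in 10.2%, 5.81%, 4.96% and 58.2%, with a median distance of 99 bp. The GC box holds a CpG itself, so its difference is partly fixed by the split. The split also separated GC content, with medians of 53.7% in the CpG-poor and 67.7% in the CpG-rich members. The part of GC content in the other motif differences was not tested. Distance moved with CpG content here. Restricted to the 332 CpG-poor members with a summit within 200 bp, the E-box was in 23.5%, the Runx motif in 19.9% and the GC box in 27.4%. In the second library the 338 such members had 22.8%, 18.9% and 30.8%.

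Tall members lay in broad H3K27ac regions. The 10% of members with the highest fold in the first library, 379 regions, had a median H3K27ac width of 4338 bp, and the lowest 10%, 451 regions counting ties, had 2202 bp. In the second library the widths were 4252 bp and 2195.5 bp. The E-box of E proteins was found in 20.3% and 22.2% of the highest 10% of each library and in 11.5% and 11.8% of the lowest. Upstream summits made up 54.6% and 58.8% of the highest 10%, against 39.9% and 42.9% of the lowest.

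H3K27ac regions at the members were intermediate in width. Their median was 2553.5 bp, against 1936 bp at CTCF-bound promoter regions and 4504.5 bp at distal regions. The widest that held a member was at Ets1 with 68305 bp, then at Znrf1, a ubiquitin ligase gene, with 63901 bp, and at Arpp21, a thymocyte-expressed RNA-binding protein gene, with 53783 bp. The Znrf1 member had folds of 4.46 and 8.78, and 4 members lay in the Arpp21 region.

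The members reached 3358 protein-coding genes, 15.0% of the 22342 annotated genes and 36.8% of the 9132 genes with shared H3K27ac at a TSS. A single member lay at 2643 of them, 2 at 544 and 3 or more at 171. Satb1 had most, with 9 members over 13 annotated start sites, followed by Sept9 and Wasf2 with 7 each and Znrf1 with 6; Sept9 is a septin, and Wasf2 a regulator of actin. Of the 3358 genes, 2396 were without a CTCF peak in the same reach, and 777 also had a CTCF-bound shared Rad21 region. Active genes without a Rad21 peak in either list numbered 1171. Without the first Rad21 library 5938 genes had a member, and 1699 had one when both peaks needed a −log10 q of at least 5.

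The share of genes with a member followed the width of H3K27ac at the promoter. It was 16.9%, 26.6%, 34.2%, 43.5% and 62.7% from the narrowest to the widest of 5 equal groups of the 9132 genes. The widest group spanned 3071 to 68305 bp, so a gene list whose median lies in it is not matched to it in width. The share with CTCF-bound Rad21, with or without a member, was 20.9%, 20.2%, 22.7%, 26.9% and 37.4% in the same groups, and was thus also highest in the widest. The share without any Rad21 peak was 22.9% in the narrowest group and 4.33% in the widest. A member has to overlap the H3K27ac region, so a wide region also offers more sequence that can qualify; its part in the order was not tested. CpG content of the promoter made less difference: 37.7% of genes with a promoter CpG ratio above 0.6 and 34.0% of the others had a member. Here and below each gene has 1 promoter window, which need not be at the start site near its member. At Ets1 the promoter ratio was 0.307, and that at a member's summit 1 bp from a TSS was 0.863. At Ccr9 they were 1.02 and 0.149, and at Smc3 1.01 and 1.01. CpG content at the start site nearest the member was not tested.

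**Figure D4:**
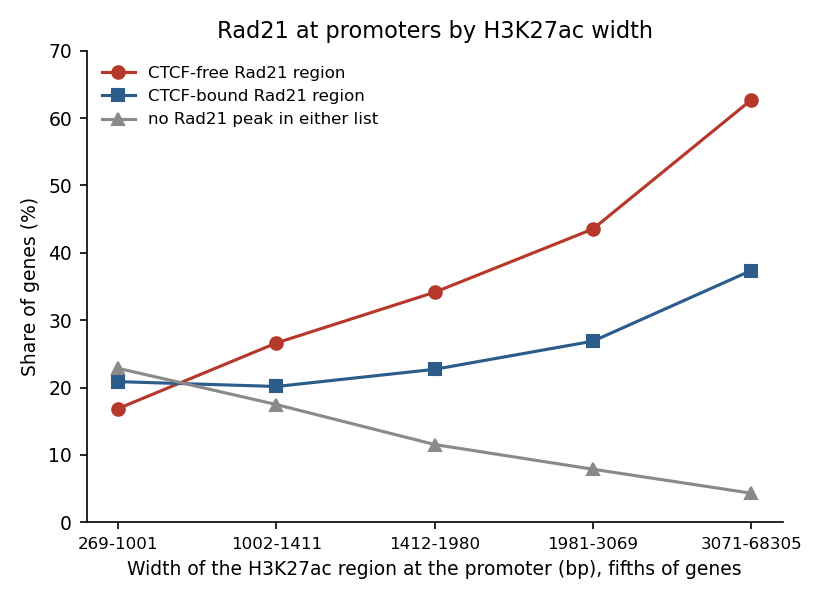
Share of active protein-coding genes (y axis, percent) with a CTCF-free Rad21 region, with a CTCF-bound Rad21 region (a gene can have both), and without a Rad21 peak, in 5 groups by the H3K27ac width at the promoter (x axis, bp). The CTCF-free share is 16.9% in the narrowest group and 62.7% in the widest, and the CTCF-bound share is 20.9% in the narrowest and 37.4% in the widest.

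Motif shares in promoters were also compared between classes of genes. Here and below, a gene has Rad21 only with CTCF when all its shared Rad21 regions with H3K27ac overlap a CTCF peak. Shared Rad21 without CTCF outside H3K27ac is not excluded at such genes. Between 250 bp before and 50 bp after the TSS the GC box was found in 66.2% of genes with a member, 63.7% of genes with CTCF-bound Rad21 only, 56.4% of active genes without a Rad21 peak, 30.2% of genes without shared H3K27ac and 44.0% of all genes. The CTCF core was found in 20.5% of promoters with a member, 40.4% of those with CTCF-bound Rad21 only, 18.5% of those without shared H3K27ac and 20.6% of all. The CCAAT box was found in 36.2% of promoters with a member, 34.0% of those with CTCF-bound Rad21 only, 41.9% of active promoters with other Rad21 peaks, 45.3% of active promoters without a Rad21 peak and 37.3% of promoters without shared H3K27ac.

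Genes of T cell receptor signalling carried members more often than active genes in general. This pathway couples the receptor and its CD3 chains to kinases and adaptors. Of 23 annotated genes on the list, 22 had shared H3K27ac and 18 had a member, 81.8% of the 22 against 36.8% of all active genes. The median H3K27ac width at the 22 was 6971.5 bp, which lies in the group of widest H3K27ac, where 62.7% had a member. This and the other gene lists were chosen with earlier results of these data known, so their shares are a description.

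The CD3 chains, which carry the receptor's signal into the cell, had members with summits within 266 bp of a start site. At Cd3e the folds were 13.1 and 10.0, and at the region shared by Cd3d and Cd3g they were 8.00 and 12.3. Cd247, the zeta chain, had 11.5 and 12.9 with summits 10 bp upstream of the TSS and on it. All 3 regions stood above the members' upper quartile in both libraries.

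The coreceptor genes that define these cells differed. Cd8a had 3 members, the tallest with folds of 11.6 and 17.4, while Cd4 had 1 member of 4.45 and 6.89, below the members' median in the first library and near it in the second. At Cd8b1 and at Fyn, a kinase of the pathway, shared Rad21 with H3K27ac was found only in regions that overlap a CTCF peak. At Cd8b1 no CTCF peak itself lay within 2000 bp of a start site. Grap2, an adaptor, had no shared H3K27ac. The 32 members at the list's genes had median folds of 7.70 and 10.4, against 5.62 and 6.90 over all members.

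Transcription factors and regulators of thymocytes showed a like share. Of 27 annotated genes, 24 had shared H3K27ac and 20 had a member, 83.3% of the 24 against 36.8% of all active genes. Their median H3K27ac width of 7424 bp lies in the widest group, where 62.7% had a member. Tcf7 had 5 members, the tallest with folds of 9.24 and 6.44, and its relative Lef1 had 2, the tallest with 10.4 and 13.0; both encode the nuclear partners of beta-catenin. The E protein genes Tcf12 and Tcf3 had members of 9.66 and 12.3, and of 4.56 and 6.03.

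Bcl11b, which commits progenitors to the T lineage, had a member of 9.48 and 9.79 with summits 1238 and 1212 bp downstream of a start site. The tallest of the 9 members at Satb1 had folds of 10.4 and 18.4. Ikzf3 and Tox, a lymphoid zinc finger factor and a factor of CD4 lineage development, had Rad21 only with CTCF, and Id2, an inhibitor of E proteins, had no shared H3K27ac. With 1 promoter per gene, this list was CpG-richer than the T cell receptor genes, with median CpG ratios of 0.734 and 0.289. At the summits of the lists' members in the first library the medians were 0.663 and 0.227.

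Genes of V(D)J recombination, which assembles antigen receptor genes, had members at 7 of 12 active genes, 58.3%, against 36.8% of all active genes. Their median H3K27ac width of 6184.5 bp lies in the widest group, where the share was 62.7%. The recombinase genes Rag1 and Rag2 had members of 9.07 and 10.0, and of 12.3 and 10.8, all with a summit within 114 bp of a start site. Dntt, the template-independent polymerase, had one of 15.8 and 14.5, with summits 1924 and 1944 bp downstream of a TSS. The repair genes Xrcc6, Dclre1c and Lig4 had members too, of which Xrcc6 differed most between the libraries, with 9.05 and 3.54. Xrcc5 had Rad21 only with CTCF, and Xrcc4 and Prkdc had a Rad21 peak in the second library alone.

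Immediate early genes, which answer receptor signals within minutes, had members at 8 of 11 active genes, 72.7%, against 36.8% of all active genes and 62.7% of the widest group, in which their median H3K27ac width of 4005 bp lies. At Egr2 the folds were 11.2 and 21.2, and at Ier5 the tallest of 3 members had 7.27 and 12.9. The AP-1 genes Jun, Junb and Jund had 4.68 and 6.22, 7.25 and 9.48, and 5.88 and 9.24, and the nuclear receptor gene Nr4a3 had 7.42 and 6.51. Egr1, Egr3 and Nr4a1 had no shared H3K27ac and so could hold no member. CTCF peaks lay within 1000 bp of the members at Egr2 (842 bp), Nr4a3 (521 bp), Jun (247 bp) and Jund (374 bp).

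Genes of thymocyte maturation and exit had members at 7 of 9 active genes, 77.8%, against 36.8% of all active genes. With a median H3K27ac width of 4689 bp they too belong beside the widest group and its 62.7%. Klf2, a transcription factor of T cell migration, had folds of 3.60 and 6.44, and the related factor gene Klf3 had 5.73 and 8.78. The cytokine signal inhibitors Socs1 and Socs3 had 5.58 and 10.2, and 3.99 and 7.82. S1pr1, the receptor for exit from the thymus, and Il7r had no shared H3K27ac, and Ccr7 had Rad21 only with CTCF.

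The genes of cohesin itself were mixed. Of 13 active genes of the list 6 had a member, 46.2%, against 36.8% of all active genes. The list's median H3K27ac width of 3236 bp lies near the lower limit of the widest group. The share was 62.7% in that group and 43.5% in the group below it. The 6 genes included the ring subunit Smc3 (8.10 and 8.29) and the loader subunits Nipbl (6.69 and 12.3) and Mau2 (3.90 and 6.14). They also included the release factor Wapal (5.66 and 5.85), its partner Pds5b (8.93 and 9.36) and Ctcf itself (12.5 and 9.52). Rad21 had Rad21 peaks in both libraries but no member, Smc1a had a Rad21 peak in the second library alone, and Stag1 had Rad21 only with CTCF. The members at Ctcf, Nipbl, Smc3 and Pds5b lay 107, 200, 231 and 396 bp from a CTCF peak.

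RNA polymerase II and pausing genes had a member at 12 of 22 active genes, 54.5%, against 36.8% of all active genes. The median H3K27ac width of this list was 1952.5 bp, in the third width group, where 34.2% had a member. Among the subunits, Polr2e had folds of 10.0 and 19.3, Polr2a, the catalytic subunit, 5.84 and 8.69, Polr2b 3.53 and 8.29, Polr2d 7.20 and 5.12, Polr2g 8.93 and 3.51, and Polr2i 7.06 and 4.91. Polr2f had no shared H3K27ac, Polr2c had Rad21 peaks but no member, and Polr2h had Rad21 only with CTCF. Chromatin regulators had a member at 15 of 22 active genes, 68.2%, against 36.8% of all active genes. Their median width of 3814.5 bp lies in the widest group with its 62.7%. Among those with a member were the demethylase genes Kdm2b (8.92 and 9.05), Kdm5a (5.02 and 9.36) and Kdm6b (3.48 and 6.03). The methyltransferase gene Kmt2d (6.14 and 11.1), the acetyltransferase gene Ep300 (10.1 and 13.5) and the remodeller gene Smarca4 (6.65 and 10.2) had members too. Kmt2a had Rad21 only with CTCF, and Kdm2a had Rad21 peaks in both libraries but no member. Kdm5b had a Rad21 peak in the second library alone.

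The housekeeping lists had shares from 27.6% to 37.5%, against 36.8% of all active genes. Ribosomal protein genes had a member at 21 of 76, 27.6%, and 23 others had Rad21 only with CTCF. The first 4 of the list with a member, Rpl14, Rpl15, Rpl17 and Rpl18, had folds of 5.28 and 4.98, 6.69 and 8.69, 4.46 and 6.92, and 6.93 and 3.20. Genes of oxidative phosphorylation had a member at 24 of 77, 31.2%, proteasome genes at 12 of 32, 37.5%, and replication-dependent histone genes at 18 of 53, 34.0%, several of which share a region. The median H3K27ac widths of the ribosomal, proteasome and oxidative phosphorylation genes were 1542, 1195.5 and 1434 bp, in the second and the third of the 5 width groups, where 26.6% and 34.2% had a member. Histone genes had a median width of 3108 bp, close to the lower limit of the widest group, 3071 bp. Their 34.0% compares with 62.7% in that group and 43.5% in the group below it. The ribosomal, proteasome and oxidative phosphorylation lists had median promoter CpG ratios of 0.853, 0.804 and 0.782, against 0.806 over all genes with a member.

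**Figure D5:**
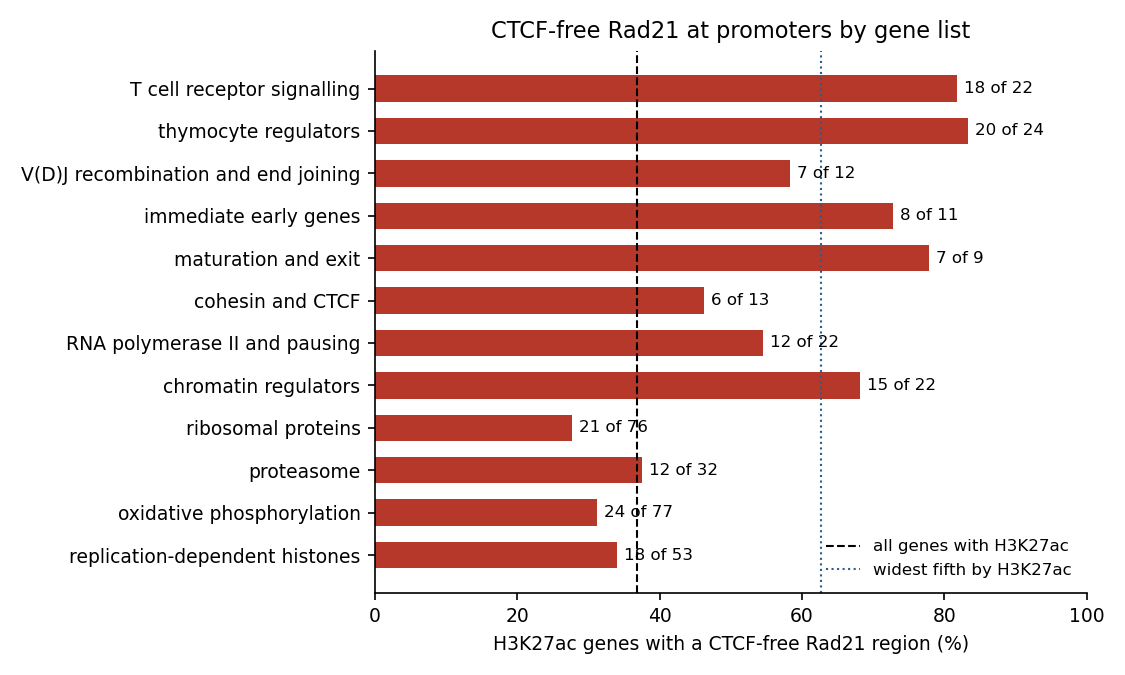
Share of genes with shared H3K27ac that have a CTCF-free promoter region (x axis, percent) for 12 gene lists (y axis), with counts beside the bars; the dashed line is the share over all genes with H3K27ac and the dotted line that of the group with the widest H3K27ac. T cell receptor and thymocyte regulator genes reach 81.8% and 83.3%, beyond both lines at 36.8% and 62.7%, and ribosomal protein genes are at 27.6%. The lists were chosen with earlier results of these data known.

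The boundary of the class depends on which peaks count. Of 374 CTCF-free promoter regions without a shared H3K27ac region, 91 (24.3%) had an H3K27ac peak in some list and 283 had none. On the CTCF side, 458 (19.9%) of the CTCF-bound active promoter regions overlapped only CTCF peaks with a q above 0.05. The members' median Rad21 folds of 5.62 and 6.90 compare with 6.69 and 7.88 at these weakly CTCF-bound regions and 11.5 and 13.5 at those with a CTCF peak of lower q. The CTCF core was found at 9.35% and 8.18% of the members' summits, 21.8% and 20.3% of the weakly bound and 57.4% and 55.5% of the other CTCF-bound ones.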

How the data were processed

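The 5 peak lists, 1 per library, are on build mm9, and the submitters' processing notes name, with no role, MACS2 2.1.0, Bowtie 1.0.0, Juicer 0.7.5, CASAVA 1.82 and 1.84, HiC-Pro 2.7.8 and Bowtie2 2.3.2. For the peak calling, the threshold and control used are not given in the sources here. The deposited fold enrichment is a ratio over local background, as the authors' caller wrote it. The deposited −log10 q values served as filters in alternatives, and the deposited −log10 p values and score were not used. Summits are distances from the peak start, as deposited.

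Chromosomes 1 to 19 and X were kept, and an entry repeated for several summits was counted once at its highest fold. Peaks of both replicates were merged at 1 bp of overlap. TSSs were those of protein-coding transcripts of GENCODE vM1 on the NCBIM37 genome (mm9), from which sequence was read. The CTCF core is a 13-bp consensus. Members and gene lists were chosen with earlier results of these data known. Named genes are the 12 members with the best worse-of-both-libraries rank, the first genes of each list, and the widest, most divided and limit cases; of the sequences chosen by the same rule, 7 of the 8 highest-ranked regions are printed with those of the T cell receptor and CTCF-bound genes. Some named genes and 1 sequence are not reported here. Ptcra and Gfi1 were not matched. Overlaps and motif searches were tested on simulated data. Python 3.11.15, pandas 2.3.3 and pysam 0.24.0 were used.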

Additional observations from a re-analysis of the deposited data

How the results depend on the processing

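No paired analysis was possible because the results come from no test. The counts moved most with which Rad21 peaks counted. With a −log10 q of at least 5 in both Rad21 lists there were 1763 members at 1699 genes, a promoter share among CTCF-free regions with H3K27ac of 44.4% (49.5% as reported), a ratio of fold medians of 0.611, a summit distance of 142.5 bp, a CTCF motif share of 9.61% and a CpG ratio of 0.777. With CTCF peaks of −log10 q of at least 1.3 only, the promoter share was 50.8%, the ratio 0.514, the motif share 10.1% and the CpG ratio 0.789. With members also free of CTCF peaks within 1000 bp, the promoter share was 46.9%, the ratio 0.677 and the distance 142 bp. With promoters of 500 bp the share was 40.2%, the ratio 0.602, the distance 100 bp and the CpG ratio 0.836. Summits widened by 100 bp on either side in place of whole regions gave a distance of 150.25 bp and a CpG ratio of 0.791. The motif share was 0.651% with at most 1 mismatch and 15.9% within 100 bp, and the CpG ratio 0.775 within 250 bp. Leaving out 1 Rad21 or H3K27ac library gave 3660 to 8324 members, 3312 to 5938 genes, shares of 46.9% to 52.4%, ratios of 0.553 to 0.588, distances of 147.75 to 203.5 bp, motif shares of 7.72% to 8.84% and CpG ratios of 0.761 to 0.795; the counts beyond 1.5 times the reported ones were 8324 members and 5938 genes without the first Rad21 library and 5673 members without the second. The causes were not tested. Depth is unknown, the CTCF list has no replicate, and weak CTCF peaks below its threshold would leave a region among the members.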

Other observations

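Chromosome X held few CTCF-free promoter regions. There were 56, 1.49% of all members, with median Rad21 folds of 5.40 and 6.78 in the first and second library, against 5.63 and 6.90 on the autosomes. Of 248 X-linked genes with shared H3K27ac, 40 (16.1%) had a member, against 37.3% of 8884 autosomal genes, and the single autosomes ran from 31.9% on chromosome 7 to 44.2% on chromosome 10. CTCF-bound Rad21 at active promoters was also less frequent on the X, at 16.5% of active genes against 25.9%, and genes without a Rad21 peak in either list made up 30.6% against 12.3%. The median H3K27ac width was 1422 bp at active X-linked genes and 1677.5 bp at autosomal ones.

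Members at divergent gene pairs, whose start sites lie within 1000 bp of each other on opposite strands, numbered 334 (8.87%), against 142 (6.16%) of the CTCF-bound promoter regions. The ETS motif was found near 19.2% and 18.9% of their summits and in 13.1% and 13.3% of the other members, and the YY1 motif near 5.99% and 5.69% against 2.39% and 2.16%. At divergent pairs the start sites of both genes are close by definition, which can itself shorten the distance to the nearest TSS. Summits at these pairs also lay within 200 bp of a TSS more often, in 70.4% and 71.6% against 53.9% and 53.7%. All members with a summit in that reach had the ETS motif in 19.2% in each library, and YY1 in 4.46% and 4.13%. The part of distance in the difference was not tested.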
